A study of Caenorhabditis elegans with 2 samples.

Results

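In starved Caenorhabditis elegans L1 larvae, peaks of tagged NHR-19 lay in the promoters of 796 protein-coding genes of the autosome centres at places that belong to promoters of 1 strand only. These were 812 of the 4560 peaks in the list built from both biological replicates, which is 17.8% (95% Wilson interval 16.7 to 18.9%). A peak was a member when its summit lay in the middle 50% of an autosome by length, more than 500 bp from any tRNA gene, and between 1000 bp upstream and 500 bp downstream of the annotated 5′ end of protein-coding genes on a single strand. Within that list, position and annotation chose the members, but the list itself holds only peaks that passed the authors' threshold on agreement between the replicates. The animals were whole larvae of strain OP791, aged 6 hours and starved after bleaching. The strain carries a fosmid transgene, wgIs791, in which nhr-19 is fused to TY1, EGFP and 3xFLAG, together with an unc-119(+) rescue in the unc-119(tm4063) background. Sonication gave chromatin fragments in a size range of 200 to 800 bp, which were precipitated with an anti-GFP antibody, while the antibody field of the labels names nhr-19. There was 1 group with 2 replicates, no other strain, stage or feeding state, and no untagged or input values were analysed here.

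Nuclear hormone receptors are zinc-finger transcription factors that bind short DNA elements through a conserved DNA-binding domain, and the family is strongly expanded in nematodes. In Caenorhabditis elegans several members, such as NHR-49, adjust fat metabolism when food is scarce, and newly hatched larvae that find no food arrest development. The centres of the autosomes hold most of the widely expressed, conserved genes, while the arms are rich in young gene families such as chemoreceptors. Many worm transcripts receive a spliced leader by trans-splicing, so an annotated 5′ end can lie downstream of the position where transcription began. In chromatin of whole larvae, a peak cannot be assigned to a tissue.

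The sequences below carry the strongest signal and the motifs described further on. Each spans 50 bp either side of a summit in build ce11, written 5′ to 3′ in the direction of the gene, as read from RefSeq's copy of WBcel235, the assembly that ce11 names. Capitals mark matches, on either strand, to 7 motifs searched throughout: the GAGA repeat (GAGAGA), the E-box (CACGTG), a CG-rich box (CCGCCC), a receptor half-site (RGKTCA), an E2F-like site (TTSSCGC), the splice acceptor signal (TTTCAG) and the GATA site (WGATAR). In these motifs R stands for A or G, K for G or T, S for C or G and W for A or T. Capitals also mark 3 words chosen after the sequences were seen, which are AGACGCAG in sec-61.G, F09F7.6 and cnk-1, GCGCCAGC in famh-136, and AAAACACGCT in rpl-3, rpl-35 and cdc-48.1. The first 5 are the strongest members whose sequence is printed. They belong to rpl-3 (chrIII:3867521-3867621, plus strand), brc-1 (chrIII:3863038-3863138, minus strand), acs-2 (chrV:15566639-15566739, plus strand), rpl-35 (chrIII:7854639-7854739, plus strand) and cdc-48.1 (chrII:10563520-10563620, minus strand). The other five, taken like the first from members on chromosomes II to V only, are the strongest further ones there with TTSSCGC (sec-61.G, chrV:10897324-10897424, minus strand), WGATAR (F09F7.6, chrIII:5552422-5552522, minus strand), CACGTG (adh-1, chrV:11888089-11888189, plus strand), AGACGCAG (cnk-1, chrIII:10270891-10270991, plus strand) and GCGCCAGC (famh-136, chrIII:8887370-8887470, plus strand).
rpl-3: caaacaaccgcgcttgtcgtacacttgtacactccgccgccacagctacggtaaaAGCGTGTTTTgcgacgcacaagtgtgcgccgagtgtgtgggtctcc
brc-1: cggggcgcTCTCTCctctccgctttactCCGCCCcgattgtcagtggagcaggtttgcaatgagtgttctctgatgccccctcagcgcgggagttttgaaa
acs-2: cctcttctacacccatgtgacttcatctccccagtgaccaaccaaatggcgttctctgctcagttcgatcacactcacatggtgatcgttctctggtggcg
rpl-35: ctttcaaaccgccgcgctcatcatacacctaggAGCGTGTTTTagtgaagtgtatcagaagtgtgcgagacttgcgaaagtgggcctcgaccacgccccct
cdc-48.1: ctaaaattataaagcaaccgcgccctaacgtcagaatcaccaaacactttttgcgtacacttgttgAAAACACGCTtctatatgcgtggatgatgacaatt
sec-61.G: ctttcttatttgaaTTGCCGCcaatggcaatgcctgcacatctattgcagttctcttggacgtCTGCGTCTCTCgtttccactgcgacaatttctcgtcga
F09F7.6: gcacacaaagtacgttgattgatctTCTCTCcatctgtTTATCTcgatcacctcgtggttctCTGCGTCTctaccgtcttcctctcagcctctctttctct
adh-1: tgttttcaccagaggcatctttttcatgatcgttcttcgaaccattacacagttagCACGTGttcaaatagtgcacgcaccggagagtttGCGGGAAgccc
cnk-1: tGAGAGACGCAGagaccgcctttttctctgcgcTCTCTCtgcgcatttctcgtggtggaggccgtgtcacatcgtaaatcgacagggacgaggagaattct
famh-136: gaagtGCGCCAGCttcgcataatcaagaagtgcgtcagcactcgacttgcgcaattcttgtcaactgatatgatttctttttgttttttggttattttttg

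The strongest member, and the strongest peak of the whole list, stood at rpl-3, a gene for a component of the ribosome's large subunit, with its summit 283 bp before the 5′ end. Its deposited peak signal, the authors' own value per peak for the combined replicates, was 13097. In the separate lists it was 6728 in replicate 1 and 6433 in replicate 2. The next was brc-1, the worm counterpart of the breast cancer susceptibility gene BRCA1, with a signal of 7840 at 120 bp upstream and with 3895 and 3989 in the replicates. It was followed by acs-2, a mitochondrial acyl-CoA synthetase that feeds fatty acids into beta-oxidation, with 5166 at 705 bp upstream and with 2934 and 2261 in the replicates. The fourth was rpl-35, another protein of the large subunit, with 4650 at 445 bp upstream and with 2484 and 2243. The fifth was cdc-48.1, an ATPase that extracts ubiquitinated proteins, with 4632 at 163 bp upstream and with 2493 and 2184. The deposited signal is compared only within a list, because how it relates to sequencing depth is not stated and library depth is unknown. Among these 5 peaks, replicate 2 was the higher only for brc-1.

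Below these, the 25 strongest members ranged down to 2055, at the F-box gene fbxl-2. By role, they held protein translocation (sec-61.G, 3289), DNA replication (rpa-2, 3110), a histone H4 gene (his-37, 2547), the histone acetyltransferase cbp-1 (2455), the spliceosomal Sm protein gene snr-4 (2408), mitochondrial tRNA modification (mtcu-2, 2336) and translation initiation (eif-3.C, 2094). They also held alcohol dehydrogenase (adh-1, 3174), the inactive phosphatase egg-5 (3747), the Ras pathway scaffold cnk-1 (2432), the zinc finger gene ztf-7 (2679), the FAM50 homolog C47E8.4 (2704), famh-136 (2874), sqd-1 (2372), tos-1 (2287), T28B8.1 (2246), F59C6.18 (2777) and the uncharacterized H41C03.3 (3345) and M01H9.3 (2246). All 25 summits lay upstream of the 5′ end, 6 of them within 200 bp and 6 more than 500 bp away. Replicate 1 had the higher signal in 22 of the 25, with values of 1107 to 6728 against 957 to 6433 in replicate 2. Some of these summits also lay within 500 bp of a small non-coding RNA gene: 10 members were that close to an snRNA gene, among them egg-5, H41C03.3 and snr-4, and their median signal was 1234, against 291 over all members. Few peaks of other promoter sites were that close to an snRNA gene, and their medians were not raised. On autosome arms 4 peaks of 1 strand were that close, with a median of 195 against 292 over all of them. Of autosomal promoter peaks shared by genes of both strands 5 were, with 363 against 410. Within 500 bp of a snoRNA gene, the median was above that of the whole class in all of these classes. It was 433 for 27 members, 556 for 10 arm peaks and 960 for 10 peaks shared by both strands. Which of the neighbouring genes such a peak serves was not tested.

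Member signal spread over a wide range, and its difference from like sites on the arms did not pass the test. The 812 members had a median of 291, with the middle 50% of values between 188 and 563 and extremes of 48.7 and 13097. The 432 peaks on autosome arms that met the same rule for 1 strand had a median of 292, and the 593 autosomal promoter peaks shared by genes of both strands had a median of 410. In a least squares fit of log2 signal over all 4560 peaks, members differed from arm peaks by 0.00 ± 0.07 (SE, n = 4560 peaks, 95% interval -0.13 to 0.14, adjusted p = 0.946). They were lower than the peaks shared by both strands by a log2 difference of -0.36 ± 0.06 (n = 4560 peaks, interval -0.49 to -0.24, adjusted p = 2.58e-08). Over the stronger 50% of peaks that difference was -0.15 ± 0.07 (n = 2280 peaks, adjusted p = 0.0447). Within the list of replicate 1 the corresponding differences were -0.06 ± 0.07 and -0.33 ± 0.06, and within that of replicate 2 they were 0.00 ± 0.07 and -0.31 ± 0.06. In these fits the peak is the unit, so the p-values measure spread between peaks of 1 list and not between cultures. All listed peaks had passed the authors' reproducibility threshold, so weak sites are missing from every class.

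**Figure D1:**
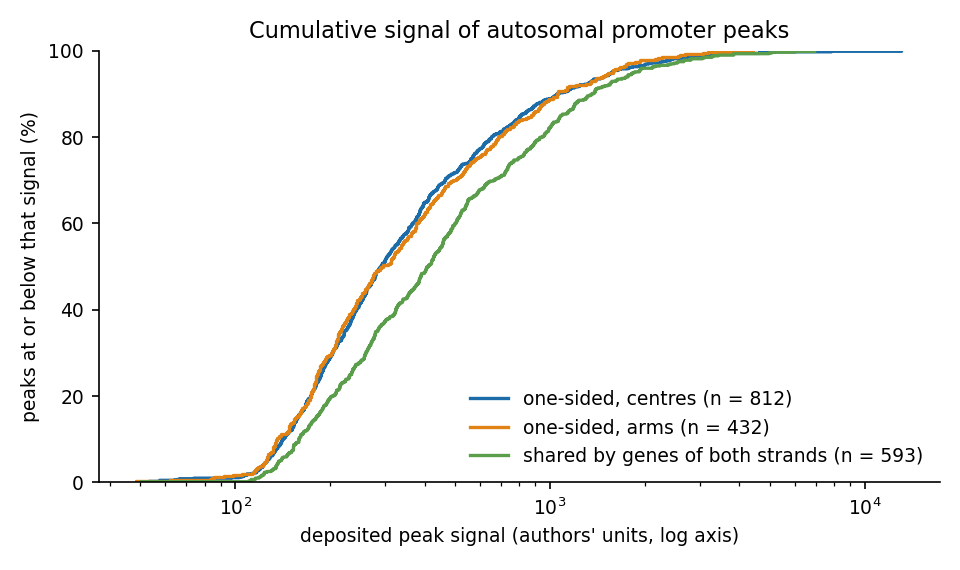
Percent of peaks at or below each deposited signal (log axis) for the 812 one-sided promoter peaks in autosome centres, the 432 on autosome arms and the 593 promoter peaks shared by genes of both strands. The centre and arm curves lie close together, with medians of 291 and 292, and the curve of shared promoters lies to the right, with a median of 410.

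A larger share of candidate peaks entered the list in the centres than on the arms. Among all 20609 ranked candidate peaks, 22.1% entered the list. Of 2505 candidates that met the rule for members, 812 did so, which is 32.4% (30.6 to 34.3%), against 432 of 1953 on the arms, 22.1% (20.3 to 24.0%). A logistic fit over these candidates gave a log2 odds ratio of 0.76 ± 0.10 (n = 4458 candidates, p = 3.83e-14). The candidates themselves were about as dense, at 231 per Mb of one-sided promoter window in the centres and 217 on the arms, whereas peaks that passed stood at 74.8 and 48.0 per Mb. Their median signal was higher in the centres, with 85.1 for candidates there and 72.6 for those on the arms. Whether that goes with the share that passed was not tested. Of 977 candidates in promoters shared by both strands, 60.7% passed.

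The 5 autosomes contributed unequal numbers of members. Chromosome III held 187, V held 180, I and II held 159 each and IV held 127. Median signal was highest on V, at 329, and lowest on IV, at 262, with 309 on I, 287 on II and 281 on III, and the middle 50% of values overlapped among all 5. The share of candidates that passed ran from 26.7% on V (23.5 to 30.1%) to 38.9% on III (34.6 to 43.3%). Both of the strongest members, at rpl-3 and brc-1, were on III, and the highest on IV was 2372.

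Members stood mostly upstream of their genes, with the highest density between 100 and 200 bp, and a smaller share of them than of arm peaks lay within 200 bp. The median summit was 232 bp upstream of the nearest 5′ end, with the middle 50% of summits between 455 and 108 bp, and 708 of 812 (87.2%) lay upstream. Per Mb of promoter window at the same distance, there were 53.4 members from 1000 to 501 bp upstream, 104 from 500 to 301, 165 from 300 to 201, 234 between 200 and 100, and 126 in the last 100 bp. Downstream of the 5′ end the density fell to 26.6 per Mb. The arm values in the same order were 26.9, 53.0, 98.1, 198, 100.5 and 17.4 per Mb, lower in every bin.

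**Figure D2:**
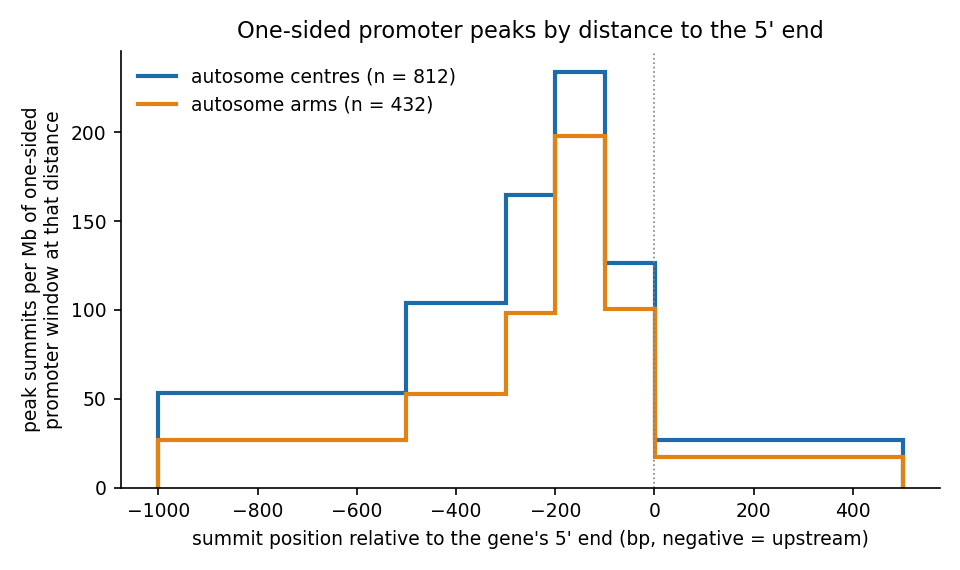
Peak summits per Mb of one-sided promoter window against position relative to the gene's 5′ end (bp, negative upstream) for the 812 members and the 432 arm peaks. Both are densest between 200 and 100 bp upstream, at 234 and 198 per Mb, and the centre line is above the arm line in all 6 bins.

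A summit within 200 bp upstream of the 5′ end was found for 266 members (32.8%, 29.6 to 36.1%) and for 181 arm peaks (41.9%, 37.3 to 46.6%). The log2 odds ratio in a logistic fit was -0.57 ± 0.18 (n = 1244 peaks, p = 0.00142). With the limit at 100 bp the ratio was -0.34 ± 0.25 (n = 1244 peaks, p = 0.181). Signal by distance was uneven. Its median was 423 for members 300 to 201 bp upstream, 340 at 500 to 301 bp, 280 at 1000 to 501 bp, 270 between 200 and 100 bp, 320 in the last 100 bp and 197 downstream. Members within 200 bp upstream differed from the others by a log2 signal of -0.03 ± 0.09 (n = 812, adjusted p = 0.938).

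Most summits were intergenic, 645 of 812 (79.4%), with a median signal of 306. Summits inside the gene itself had lower medians, which were 196 for 38 in introns, 257 for 38 in 5′ UTR exons and 176 for 21 in coding exons of the same gene. Another 48 lay in an intron of a different gene, with a median of 410, and 15 in the 3′ UTR of a different gene, with a median of 253. In 239 cases the peak interval itself spanned the 5′ end. The nearest upstream neighbour was on the same strand for 502 members (61.8%) and less than 500 bp away for 189 of those (23.3% of members), the arrangement that operons share. Among arm peaks these shares were similar, at 58.3% and 22.5%. The share of members within 500 bp of an annotated ncRNA gene was 13.8%, that is 112 peaks with a median signal of 324. It was 7.87% of arm peaks and 13.8% of promoter peaks shared by both strands.

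The values of the sites nearest each limit of the rule follow as a description. Just inside the upstream limit were M01F1.9 (signal 223) and har-1 (592), and just outside were algn-10 (154) and Y24D9A.7 (297). At the downstream limit, F19B6.1 (170) and F54F2.6 (977) were inside, with taap-1 (197) and dbt-1 (157) outside. At the left end of the centre, C34C12.8 (1926) and rpl-13 (363) were inside and fbxa-24 (322) and F54D10.5 (630) outside. At the right end, Y53H1B.2 (213) and best-1 (251) were inside and cisd-1 (190) and umps-1 (779) outside. Nearest to the tRNA limit, F22B7.9 (233) and vha-9 (314) were inside, while gcy-33 (588) and kvs-3 (320) were outside.

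Of 9445 eligible genes, 8.43% had a member. The share was above that in most lists of genes for basic cell functions and below it for chemoreceptors and C-type lectins. In several lists above it the Wilson interval included 8.43%, as for translation factors (6.68 to 35.9%) and mitochondrial ribosomal proteins (4.95 to 24.0%). Xenobiotic metabolism genes were at 10 of 91 (11.0%, 6.08 to 19.1%). An eligible gene had at least 1 base of its window where a summit would have counted. The lists below are described by counts and carry no test, because they were chosen with earlier results of these data known. Genes entered a list by the pattern of their symbol. The chromatin list thus counts wdr-46 and wdr-23, whose role in chromatin was not checked. Ribosomal protein genes of the cytosol had members at 18 of 53 (34.0%), with a median signal of 767 over the 18 genes against 303 over all genes with a member, although the median eligible window of these genes was only 332 bp of a possible 1501. Muscle contractile genes had them at 10 of 21 (47.6%), mitochondrial import at 4 of 12 (33.3%), pan-neuronal synaptic genes at 7 of 22 (31.8%), ubiquitin and autophagy genes at 15 of 49 (30.6%), glycolysis and the TCA cycle at 7 of 26 (26.9%), the insulin to TOR and AMPK pathway at 4 of 15 (26.7%), the proteasome at 6 of 24 (25%) and chromatin regulators at 15 of 63 (23.8%). At the other end, the list of F-box, MATH and BATH genes had none of 46. The Wilson interval allows a share of up to 7.71% there. That list, made by symbol, left out fbxl-2, the F-box gene with a member named above. Chemoreceptors had 4 of 484 (0.826%), C-type lectins 1 of 80 (1.25%), neuropeptides and insulins 1 of 59 (1.69%) and intestine markers 1 of 39 (2.56%).

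**Figure D3:**
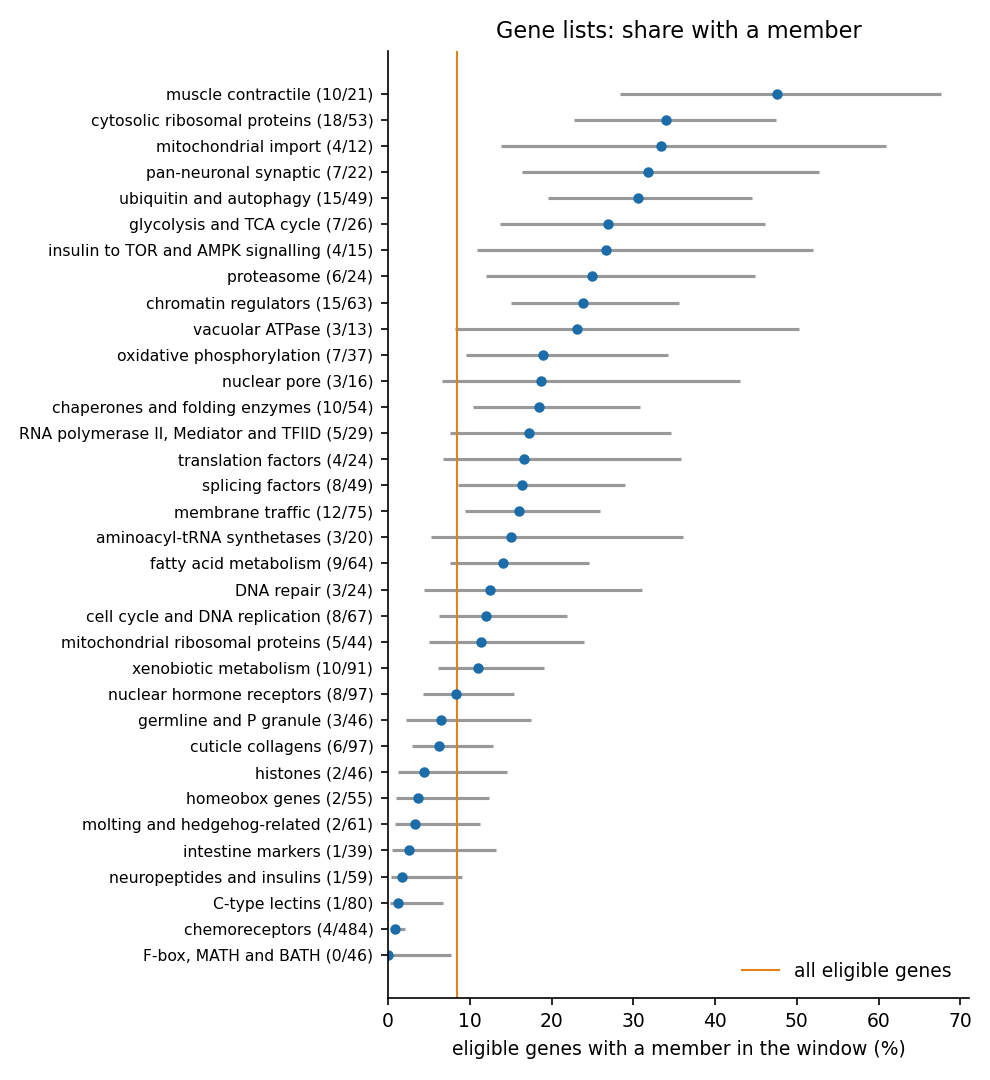
Percent of eligible genes of each of 34 lists with a member in the promoter window (points, with 95% Wilson intervals), the counts beside each name, and the 8.43% of all eligible genes as a line. Muscle contractile and cytosolic ribosomal protein genes are farthest to the right, at 47.6% and 34.0%. Chemoreceptors and the list of F-box, MATH and BATH genes, which leaves out fbxl-2, are farthest to the left.

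Members at ribosomal protein genes gathered in 1 range of distances. Of their 18 members, 15 (83.3%) lay 500 to 201 bp upstream, against 262 of all 812 (32.3%), 2 lay closer and 1, at rpl-19, was downstream; these limits were joined after the values were seen, and the short windows of these genes were not allowed for. After rpl-3 and rpl-35 the list ran through rpl-24.2 (signal 1497, at 156 bp upstream, 807 and 708 in replicates 1 and 2), rpl-41.2 (1443, at 255 bp) and rps-4 (1329, at 292 bp). The next were rpl-23 (1057, at 298 bp) and rpl-6 (1017, at 345 bp). Members with a signal under 800 were rpl-14, rps-17, rps-11, rps-5, rpl-32, rpl-13, rps-8, rpl-19 and rps-2, the last with 113. In 15 of the 18 a peak was present in the thresholded lists of both replicates. The 5 genes of the mitochondrial ribosome with a member, of 44 eligible, had weaker peaks, led by mrps-16 (549), mrpl-23 (494) and mrpl-47 (487).

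Genes that fold, tag and degrade proteins had members from strong to weak. Below cdc-48.1 stood ufd-3 (898), which works with CDC-48 in ubiquitin-dependent degradation, and the ubiquitin-conjugating enzymes ubc-7 (751) and ubc-25 (713). The autophagy genes atg-18 (512), atg-16.2 (205) and atg-13 (130) were lower. In the proteasome, rpn-11, the deubiquitinase of the regulatory lid, had 869, the ATPases rpt-3 and rpt-1 had 300 and 262, and the core subunits pbs-4, pas-1 and pbs-3 had between 124 and 147. The median over the 6 proteasome genes was 205, below the 303 of all genes with a member. Of 54 chaperone and folding genes, 10 had a member, led by dnj-9 (1577) and the cyclophilins cyn-10 (1482) and cyn-3 (1165).

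Mitochondrial and metabolic genes with members covered entry, respiration and carbon flow. The import receptor tomm-20 had 1646 at 282 bp upstream, with 925 and 730 in the replicates, and tin-9.1 and timm-17B.1 of the inner membrane machinery had 1047 and 624. Of 37 oxidative phosphorylation genes, 7 (18.9%) had one, led by cox-5B (1347), cox-6A (1226) and nduf-11 (908). The cox-6A summit was 788 bp upstream and within 500 bp of an snRNA gene. Pyruvate carboxylase pyc-1 had 887 and the gluconeogenic enzyme pck-2 had 675. In fatty acid metabolism, 9 of 64 genes had a member (14.1%), and acs-2 at 5166 stood far above the next, dhs-1 (297) and ech-1.2 (290).

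Genes that regulate growth and transcription followed. The AMPK subunit aakg-5 had 619, the insulin-pathway transcription factor daf-16 had 388, the folliculin homolog flcn-1 had 232 and the Raptor homolog daf-15 had 204, and all 4 peaks were in both replicates' lists. The list of chromatin regulators was led by cbp-1 (2455), set-4 (1149) and wdr-46 (886), the last taken in by its symbol only. The histone methyltransferase set-2 had 508. Nuclear hormone receptors were at 8 of 97 (8.25%), close to the background of 8.43%, led by nhr-105 (795), nhr-49 (525) and nhr-21 (475). The gene of the tagged factor had 2 members of its own, one 34 bp upstream with a signal of 434 (254 and 179 in the replicates) and one 628 bp upstream with 218 (138 and 87.1). Since the strain also carries nhr-19 on a fosmid, reads from the chromosome and from the transgene cannot be told apart there.

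Muscle and neuronal genes had members of modest signal. Actin genes act-1 (568), act-2 (342) and act-3 (242), the kindlin homolog unc-112 (349), the titin-like unc-22 (302), the essential light chain mlc-3 (278), unc-89 (218), paramyosin unc-15 (198), myosin heavy chain myo-3 (180) and integrin pat-3 (158) made up the muscle list, with a median of 260, below the 303 of all genes with a member. The actin genes are near-identical copies, so reads could have been placed at more than 1 of them. The neuronal list was led by unc-76 (613), ric-3 (357) and synaptobrevin snb-1 (292), and had a median of 200; 3 of its 7 members were in both replicates' lists. Of the intestine markers only spp-10 had one, with 333.

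Several promoters held more than 1 member. There were 44 genes with 2 and 2 genes with 3. At acer-1, the strongest stood 994 bp upstream with 1567 (867 and 755 in the replicates), and the others were 54 and 275 bp downstream with 142 and 97.3, from 1 shared interval. At F26A3.4, a phosphatase-family gene, the 3 had 335, 309 and 304 at 59, 661 and 912 bp upstream. At cbp-1 the member 888 bp upstream had 2455, and the one 95 bp upstream had 261. Of all members, 16 had another member summit within 200 bp.

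For 4 of the 7 searched motifs, the share of member summits was above that of windows 200 bp away, a comparison that carries no test. GAGAGA, the core of the element that GAGA factors bind in flies, was within 50 bp of 183 summits (22.5%, 19.8 to 25.5%), against 10.2% and 7.39% of the windows 200 bp to the left and right. TTSSCGC, the site family of E2F and DP factors, was at 106 summits (13.1%), against 3.45% and 2.59%. CACGTG, the E-box bound by basic helix-loop-helix proteins, was at 62 (7.64%), against 0.985% and 1.97%. CCGCCC was at 58 (7.14%), against 1.35% and 2.09%. At least 1 of these 4 was at 350 summits (43.1%), against 15.3% and 13.3% of the flanks. Among windows of the same length centred 200 bp upstream of all 17242 autosomal protein-coding genes, shares were 7.08% for GAGAGA, 1.54% for CACGTG, 2.22% for CCGCCC and 3.68% for TTSSCGC. At the summits of all 4560 peaks, members included, they were 25.8%, 7.76%, 5.68% and 9.06% in the same order. The share of members was thus below that of the whole list for GAGAGA, near it for CACGTG, and above it for CCGCCC and TTSSCGC.

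The remaining 3 motifs had shares at the summits that were near or below those of the flanks. RGKTCA, the half-site that many nuclear receptors bind in other animals, was at 13.8% of summits and at 13.9% and 13.1% of the flanks. WGATAR, the GATA factor site, was at 19.6%, against 24.8% and 23.5%. TTTCAG, the splice acceptor signal that precedes many 5′ ends, was at 7.64%, against 20.9% and 17.9%. In the windows of all autosomal genes these motifs were at 14%, 21.7% and 17.5%, in the same order, and at the summits of all peaks at 13.7%, 21.8% and 5.66%. A match is only the presence of letters and does not locate the factor that was bound. Between centres and arms, none of the 7 contrasts in logistic fits over all peaks passed, with adjusted p-values from 0.209 to 0.564, and none had an unadjusted p below 0.05. GAGAGA had the lowest, at 22.5% against 27.1% of arm summits (log2 odds ratio -0.35 ± 0.20, n = 4560 peaks, interval -0.74 to 0.04). Against promoters shared by both strands, WGATAR was more frequent in members, at 19.6% against 11.5% (log2 odds ratio 0.91 ± 0.23, n = 4560 peaks, adjusted p = 7.54e-04), and so was CACGTG, at 7.64% against 4.05% (0.97 ± 0.36, adjusted p = 0.0447). GAGAGA, at 22.5% against 17.4%, did not pass (0.47 ± 0.20, n = 4560 peaks, adjusted p = 0.0829), but passed without replicate 1 (0.65, adjusted p = 0.0132), without replicate 2 (0.57, adjusted p = 0.0462) and under 4 of the other alternatives. The CACGTG call was lost without either replicate, at 0.71 without replicate 1 (n = 3763 peaks, adjusted p = 0.245) and 0.70 without replicate 2 (n = 3780 peaks, adjusted p = 0.152). The WGATAR call held without either replicate. It was lost in windows of 25 bp either side (0.63, n = 4560 peaks, adjusted p = 0.152). In the stronger 50% of peaks it was also lost (0.88, n = 2280 peaks, adjusted p = 0.0534). RGKTCA, at 13.8% against 10.1%, did not pass against both strands (log2 odds ratio 0.51 ± 0.25, n = 4560 peaks, adjusted p = 0.135).

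**Figure D4:**
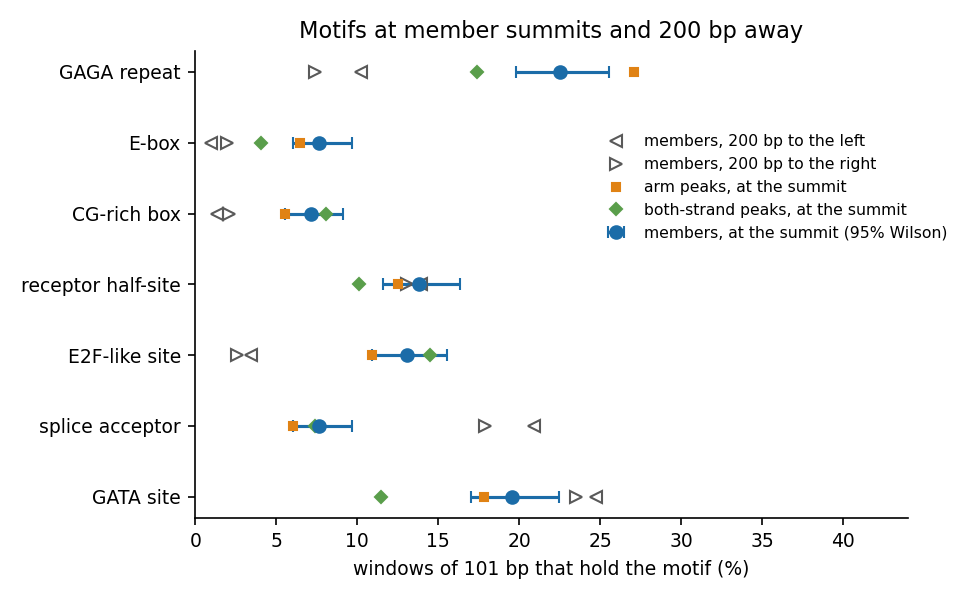
Percent of windows, 50 bp either side, that hold each motif at member summits (circles, 95% Wilson intervals), 200 bp to the left and right of them (triangles), and at the summits of arm peaks (squares) and of promoters shared by both strands (diamonds). The GAGA repeat is GAGAGA, the E-box CACGTG, the CG-rich box CCGCCC, the receptor half-site RGKTCA, the E2F-like site TTSSCGC, the splice acceptor TTTCAG and the GATA site WGATAR; the GAGA repeat, E-box, CG-rich box and E2F-like site are at 7.14 to 22.5% of summits, above both flanks.

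Within the members, signal was lower where a GATA site was present. The 159 with WGATAR had a median of 235 and the other members 319, a log2 difference of -0.42 ± 0.09 (n = 812, adjusted p = 1.97e-05). Its share was 11.8% among the 203 strongest members, 14.8% and 27.1% in the following groups of 203 and 24.6% among the 203 weakest. The site is rich in A and T, and with the GC content of the window as a covariate, an alternative added after the data were seen, the difference was -0.24 ± 0.09 (n = 812, adjusted p = 0.0303). Among the members in the stronger 50% of peaks it was -0.24 ± 0.12 (n = 444, adjusted p = 0.152). The 106 with TTSSCGC had a median of 399 against 280, a log2 difference of 0.29 ± 0.11 (n = 812, adjusted p = 0.0464), and made up 17.2% of the 203 strongest members and 8.87% of the 203 weakest. That call was not held without replicate 1 (0.25, n = 694, adjusted p = 0.0924), without replicate 2 (0.27, n = 690, adjusted p = 0.101), or with GC content as a covariate (0.19, adjusted p = 0.241). With that covariate, members with CCGCCC were lower by a log2 difference of -0.44 ± 0.16 (n = 812, adjusted p = 0.0303), against -0.14 ± 0.16 without it (adjusted p = 0.913). GAGAGA was at 20.7% of both the 203 strongest and the 203 weakest members, and its members differed by 0.00 ± 0.10 (interval -0.18 to 0.19). Member windows were lower in GC than arm windows, at 45.0% and 46.8%, a difference of -1.75 ± 0.47 percentage points (n = 4560 peaks, p = 1.69e-04).

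Further sequence was shared by summits in the form of words of 8 bases. All 8-base words of the member windows, 24636 in number, were searched after the sequences had been seen, so these counts are descriptions. AGACGCAG, GCAAACAC and AAACGCGC were picked for being more frequent at summits than in flanks. GCGCCAGC and CGCGTTTC were picked for being more frequent among the 203 strongest than the 203 weakest members. Those differences are how the words were picked and are not results about them. AGACGCAG, drawn in the windows of sec-61.G, F09F7.6 and cnk-1 above, was at 81 member summits (9.98%) and in 6 and 9 of the windows to the left and right. It was at 64 arm summits (14.8%), at 47 summits shared by both strands (7.93%) and in 1.25% of all promoter windows. GCAAACAC followed at 38 summits (4.68%), against 1 and 2 in the flanks. AAACGCGC was at 34 (4.19%), against 1 and 1, with a median signal of 668. Both had higher shares at arm summits (7.41% and 6.94%) and at summits shared by both strands (9.27% and 6.91%). GCGCCAGC, shown for famh-136, was at 23 summits, of which 16 were among the 203 strongest members and none among the 203 weakest, with a median signal of 780. CGCGTTTC had 15 among the 203 strongest and none among the 203 weakest. These words too were less frequent in members than in like sites. GCGCCAGC was at 2.83% of members, 4.63% of arm summits and 5.23% of those shared by both strands. For CGCGTTTC the shares were 2.71%, 3.47% and 3.37%.

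The printed windows of rpl-3, rpl-35 and cdc-48.1 held the same 10-base word, AAAACACGCT or its reverse complement AGCGTGTTTT. It was the longest word that at least 3 of the 5 strongest printed windows shared, and was looked for after they had been seen. These 3 were the only members of 812 that held it, with signals of 13097, 4650 and 4632. It was in none of the windows 200 bp to either side, at 1 of 432 arm summits, at none of the 593 summits shared by both strands, and in 8 of 17242 promoter windows. In rpl-3 and rpl-35 the letters read AGCGTGTTTT towards the gene, and in cdc-48.1 they read in the opposite direction.

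Agreement between these replicates was the authors' condition for entering the list, so the replicate values of members are a description only. Both thresholded lists held a peak with a summit within 200 bp for 576 of 812 members (70.9%, 67.7 to 74.0%), against 67.1% of all peaks, 70.1% of arm peaks and 80.4% of those shared by both strands. A further 77 were in the list of replicate 1 only, 84 in that of replicate 2 only, and 75 in neither. Median signals in the combined list were 397, 180, 170 and 133 in that order. The strongest members without a partner in 1 or both lists were aipl-1 (453), F26F12.3 (419), dpy-30 (329), K02D10.8 (322) and ego-1 (286). In the ranked lists, which keep weaker candidates, 796 members had a partner in both. Over these, the median log2 ratio of replicate 1 to replicate 2 was 0.19 (SD 0.34), and replicate 1 was higher at 588. Signal in the replicates correlated across the 796 peaks (Spearman's rho 0.923, and Pearson's r of log2 values 0.957), which share their libraries and are not independent.

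**Figure D5:**
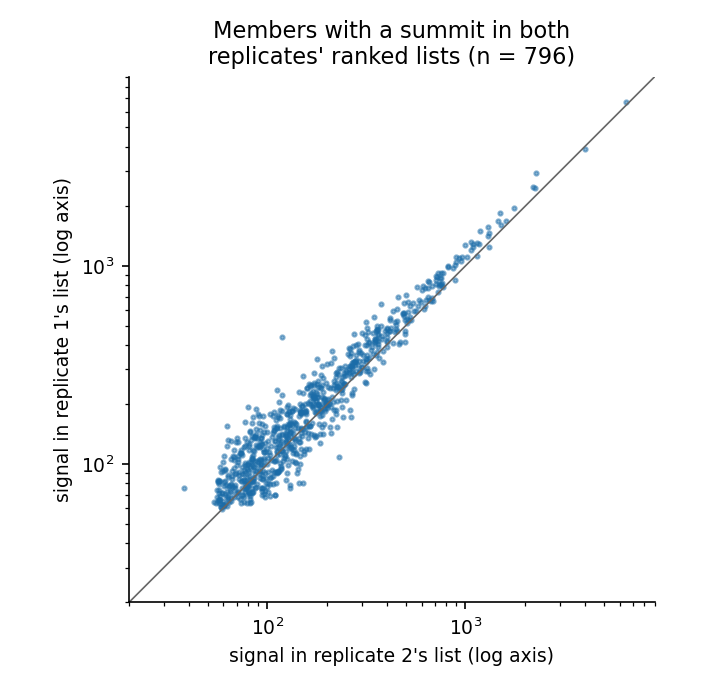
Signal in replicate 1's ranked list against that in replicate 2's for the 796 members with a summit within 200 bp in both (log axes), with the line of equal values. Points run along the line with a median log2 ratio of 0.19, and scatter more at low signal.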

How the data were processed

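ChIP-seq peak lists of 2 biological replicates (1 group) were analysed. The authors' signal per peak (column 7) was used as deposited; no source used here names the peak caller or aligner, and the assembly is ce11 per the labels. The deposited −log10 of the irreproducible discovery rate (IDR) served as an alternative threshold. There were 16 columns of single-replicate values in the 2 ranked lists of the series that were not used. Summits were placed on Ensembl WBcel235 release 115 (19973 protein-coding and 612 tRNA genes). Python 3.11.15, pandas 2.3.3, statsmodels 0.14.6 and scipy 1.17.1 were used. Log2 signal was fitted by least squares with HC3 errors and shares by logistic fits, over all peaks of a list or the classes compared, 2-sided, and checked on simulated data. Benjamini-Hochberg adjustment covered 2 signal contrasts, 14 motif contrasts and 8 tests within members at 0.05. Wilson intervals (95%) cover counting error only, and depth per sample is unknown. The members and the 34 gene lists were chosen with earlier results of these data known, and 3 list patterns were corrected and 2 lists renamed after values were seen. Named genes are the 25 strongest members, up to 3 leading genes per list, the sites nearest each limit, the 5 strongest without a partner and the 3 promoters with most members; further list members, and both nhr-19 sites, were named after their values were seen.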

Additional observations from a re-analysis of the deposited data

How the results depend on the processing

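Results were recomputed for each replicate's own list, the list from pooled pseudoreplicates, the stronger 50% of peaks, merged summits, transcript 5′ ends, a window of 500 bp either side, a centre of 40%, and other covariates, motif windows and limits. The lower signal than at promoters of both strands, the lower GC content and the higher share of candidates that pass kept their direction and call in every alternative run for them, although the signal difference shrank to -0.15 in the stronger 50% of peaks. Members numbered 444 in the stronger 50% of peaks, with 453 genes. Members were 19.5% of the peaks there, 20.7% with transcript 5′ ends, 15.8% with the 500 bp window and 14.7% with the centre of 40%. The share within 100 bp upstream did not pass (-0.34). Motif contrasts called against both strands were 2 in the fit reported, 5 with 100 bp windows and 0 with 25 bp windows. The pooled list gave 1, which was WGATAR. The stronger 50% also gave 1, but this was RGKTCA (1.03), and neither WGATAR nor CACGTG was called there. RGKTCA against both strands, not called in the fit reported, was also called with 100 bp windows (0.62) and without replicate 2 (0.68). Against arms, 100 bp windows gave 1 call and not 0. GAGAGA against both strands, not called in the fit reported, was called with transcript 5′ ends (0.59), the 500 bp window (0.66), GC as covariate (0.56) and 100 bp windows (0.68), and without either replicate. In 100 bp windows TTTCAG turned to -0.66 against both strands. Features called within members were 2, but 1 with chromosome as covariate, with merged summits and with the 500 bp window, 0 in the stronger 50%, and 1 without either replicate; TTSSCGC was -0.0060 in the stronger 50%. The cause of these changes was not tested. No paired analysis was possible because there is only 1 group. With 2 replicates and unknown depth, a site missing from the list is not shown to be unbound.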
